A study of Mus musculus with 3 samples.

Results

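The myometrium core was the set of Visium spots richest in smooth muscle transcripts in uterine sections of mice at pregnancy day 7.5. A spot was a member when it held at least 1000 UMIs (unique molecular identifiers, each counting 1 captured RNA molecule) and when Acta2, Actg2, Tagln, Myh11 and Cnn1 together made up at least 20000 CPM (counts of a gene scaled to 1000000 UMIs of that spot). Members were thus chosen by measured values, and the levels of these 5 defining genes are a description of the choice. They were 211 of the 3939 spots with at least 1000 UMIs, out of 3978 deposited. The series held 1 group and no treatment. Females fed normal chow were mated with stud males and dissected on that day, with no strain, genotype or allele given in the labels, and frozen sections of their uteri were laid on 10x Visium slides. Each of the 3 libraries came from 1 capture area, and the library of replicates 1 and 2 mixed 2 biological replicates in 1 matrix, so n is at most 3. A spot captures the RNA of a small area of tissue that can hold several cells, and the spots of 1 library are not replicates. The core was set against 576 border spots, with 4000 to 20000 CPM of the same sum, and against all 3728 other spots of the same libraries.

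The myometrium is the muscular wall of the uterus, an inner circular and an outer longitudinal layer of smooth muscle with fibroblasts, vessels and resident immune cells between the bundles. Its cells contract when calcium entering through voltage-gated channels and released from stores binds calmodulin, which switches on myosin light chain kinase. During pregnancy this wall is kept quiet by progesterone and by cyclic nucleotide signals, and it gains oxytocin and prostaglandin receptors and gap junctions towards birth, while the endometrium inside it turns into the decidua around the implanted embryo.

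In the library of replicates 1 and 2 the core took 141 of 1773 spots, a share of 7.95% (exact 95% binomial interval 6.74 to 9.31). It held 30 of 1080 spots in replicate 3, a share of 2.78% (1.88 to 3.94), and 40 of 1086 spots in replicate 4, a share of 3.68% (2.64 to 4.98). The intervals cover counting error only. The share was highest in the library of replicates 1 and 2, whose interval lies above the other two. The 5 defining genes each had a UMI in every core spot. The median defining sum of core spots was 29145, 22740 and 24719 CPM in the libraries of replicates 1 and 2, replicate 3 and replicate 4, which is the order of libraries used for all values below. The highest sums were 43563, 31670 and 34304 CPM. At the threshold, the lowest sums inside were 20000, 20062 and 20148 CPM, and the highest outside were 19831, 19968 and 19988 CPM, with no gap between them. A threshold of 30000 CPM would have left 65, 2 and 5 spots.

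**Figure D1:**
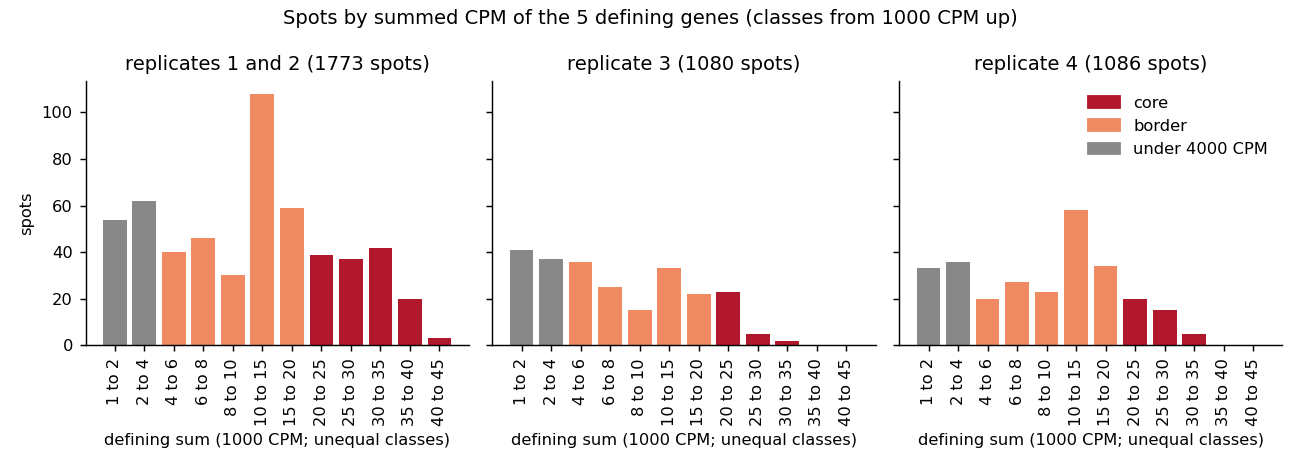
Number of spots by class of the summed CPM of the 5 defining genes, in 1 panel per library, for sums from 1000 CPM up (classes of unequal width on the horizontal axis). The core runs on from the border without a gap, and replicates 3 and 4 hold 2 and 5 spots above 30000 CPM, against 65 in the library of replicates 1 and 2.

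Core spots were shallower than most of the tissue: their median was 5529, 14699 and 19221 UMIs, against 4789, 12832 and 14192.5 UMIs in border spots and 8613, 26974.5 and 28744.5 UMIs in all other spots. The core as a whole held 830627, 454482 and 722259 UMIs, so counting error is largest in replicate 3. Mitochondrially encoded genes took 2.41%, 1.92% and 1.27% of core UMIs, against 1.62%, 1.40% and 1.16% of border UMIs, and ribosomal protein genes took 19.0%, 22.5% and 20.2%, against 17.3%, 19.5% and 18.6%. Of the spot barcodes, 676 to 825 were shared between any pair of libraries. After thinning of every spot to 1000 UMIs, 132 of 141, 21 of 30 and 32 of 40 core spots were members again.

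UMIs were summed per library and class of spot, and genes were tested across the 3 libraries with edgeR's quasi-likelihood test, with library as a block and with the 5 defining genes left out of the rows and of the library sizes. Genes were called at an adjusted p (Benjamini-Hochberg, over all genes tested) below 0.05 with a log2 fold change of 1 or more in either direction, and "rose", "fell", "higher" and "lower" are used of genes with a call unless values alone are given. Against the border, 659 of 10931 genes were called (6.03%), 306 higher (2.8%) and 353 lower (3.23%) in the core. Against all other spots, 3502 of 13317 genes were called (26.3%), 1646 higher (12.4%) and 1856 lower (13.9%). Without the library block the border comparison had 422 calls, and without the library of replicates 1 and 2 it had 381. Spots were sorted along a smooth muscle scale, so genes that go with smooth muscle in this tissue had to differ, and the tests ask how evenly a difference recurred in 3 libraries. Log2 fold changes are core minus border or core minus all other spots, ± SE of the fit. CPM of a gene are over the summed UMIs of a class of spots. In such sums fewer cells of a type and less RNA per cell cannot be told apart.

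The contractile machinery other than the defining genes was higher in the core than in the border and in the rest of the tissue. Of 36 genes of smooth muscle contraction and its cytoskeleton, 35 were tested against the border, and 24 rose and 0 fell, with a median log2 fold change of 1.13 (-0.0077 over all genes tested). Against all other spots 32 of 36 rose and 0 fell, with a median of 3.41 (-0.074 over all genes tested). The members and lists were chosen with earlier results of these data known, so these counts describe the core and are not independent evidence that it is muscle. The list summed to 59061, 46831 and 51695 CPM in the core, 25842, 23633 and 25904 CPM in the border and 7005, 6821 and 7266 CPM in all other spots.

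Pcp4 (ENSMUSG00000090223, chr16:96467606-96525793 in GRCm38) encodes a small protein that binds calmodulin. It had the largest rise of the called genes with a mean log2 CPM of at least 5 in the fit, in both comparisons. It stood at 3573, 3657 and 2831 CPM in the core, 754, 955 and 785 CPM in the border and 80.0, 75.9 and 73.6 CPM in all other spots. The 3 classes did not overlap, and the log2 fold change was 2.10 ± 0.09 against the border (adjusted p = 3.7e-14) and 5.49 ± 0.11 against all other spots (adjusted p = 5.3e-76). With each spot thinned to 1000 UMIs, 89.4%, 93.3% and 82.5% of core spots kept a Pcp4 UMI, against 48.8%, 48.1% and 48.1% of border spots. Its relative Pcp4l1 also rose, to 274, 211 and 295 CPM in the core, against 92.0, 98.0 and 112 CPM in the border. The enzyme that calmodulin switches on, myosin light chain kinase (Mylk, chr16:34745210-35002420), stood at 1799, 1560 and 1674 CPM in the core and 578, 668 and 650 CPM in the border. The Mylk difference was 1.5 ± 0.09 (adjusted p = 1.3e-11), with every core library above every border library.

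The phosphorylated light chain itself, Myl9 (chr2:156775420-156781658), reached 7602, 6385 and 7416 CPM in the core, against 2777, 2718 and 2991 CPM in the border. Its rise was 1.43 ± 0.08 against the border (adjusted p = 4.0e-12) and 4.62 ± 0.10 against all other spots (adjusted p = 1.2e-73). The tropomyosin Tpm2, which lies along the actin filament, stood at 6294, 4682 and 4811 CPM in the core and 2388, 2008 and 2070 CPM in the border. Smtn, which encodes the actin-binding protein smoothelin of contractile smooth muscle, stood at 2176, 1366 and 1753 CPM in the core, against 687, 557 and 688 CPM in the border (1.54 ± 0.11, adjusted p = 5.9e-10). None of these core and border values overlapped. The phosphatase side of the switch moved the same way. Ppp1r12b, a regulatory subunit of myosin phosphatase, rose by 1.38 ± 0.11 on the log2 scale (adjusted p = 1.1e-09), and Lmod1, an actin nucleator of muscle, by 1.33 ± 0.10 (adjusted p = 9.4e-10). The intermediate filament gene Des passed the p threshold against the border with a difference of 0.59 ± 0.09 (adjusted p = 2.4e-05), under the minimum fold, and its core values of 5018, 2823 and 3297 CPM overlapped border values of 3354, 2040 and 2444 CPM. Myl6, the light chain that smooth muscle shares with other cells, behaved likewise, with 0.80 ± 0.07 (adjusted p = 1.4e-08).

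**Figure D2:**
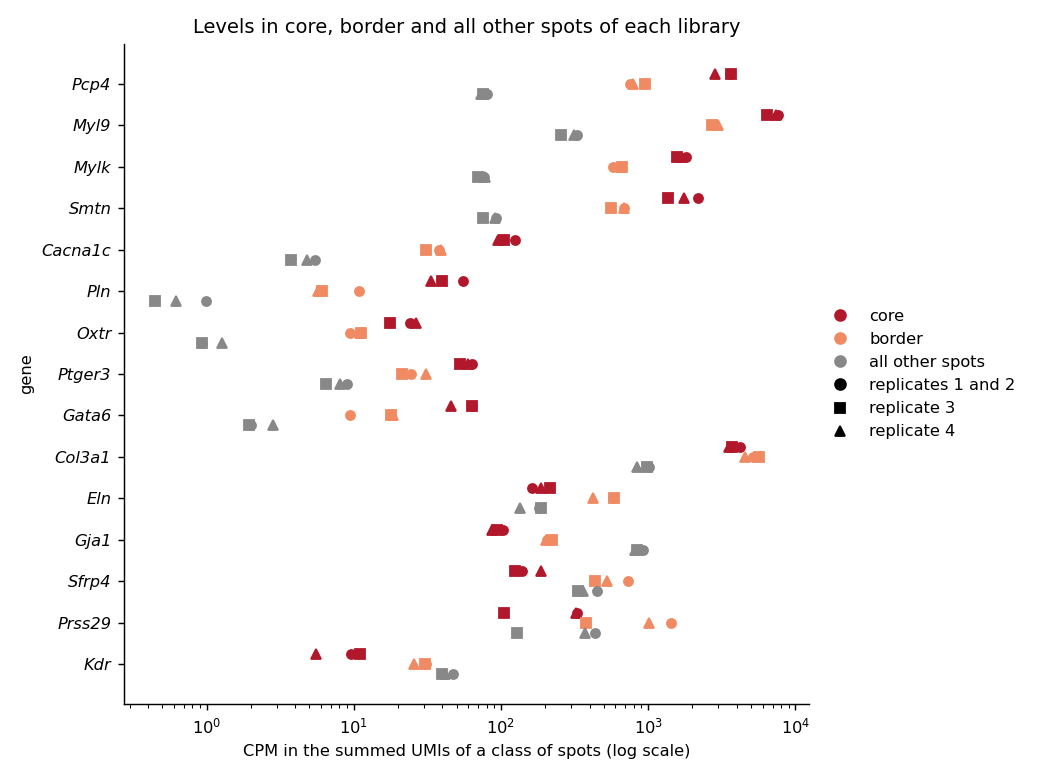
CPM (log scale) of 15 genes in the summed UMIs of core, border and all other spots, 1 point per library and class, with libraries as marker shapes. Muscle genes such as Pcp4 step down from the core to the border to the rest, Col3a1 and Eln peak in the border, and Gja1 runs the other way.

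Many smooth muscle genes carry in their promoters the CArG box, the site that serum response factor binds together with myocardin. Promoters of RefSeq (GRCm38.p6), 250 bases before to 50 after the start, were searched for the CArG box, which reads alike on both strands. Of all 27025 genes with a promoter 488 held one (1.81%). Of 21 genes with the largest rises 16 had a promoter, and 3 held one (18.8%). Of 41 genes called higher than the border in the lists of contraction, calcium handling, agonist receptors, cyclic nucleotide signalling and adhesion, 35 had a promoter and 3 held one (8.57%), against 6 of 62 genes of these lists not so called (9.68%). A match describes the letters only. The promoters of Myl9 (chr2:156775214-156775513, plus strand), Fbxl22 (chr9:66514544-66514843, minus strand) and Asb2 (chr12:103355952-103356251, minus strand) are shown as the 3 of those 21 genes with a match, with the CArG box in capitals, starting at -161, -222 and -64 from the start.
Myl9: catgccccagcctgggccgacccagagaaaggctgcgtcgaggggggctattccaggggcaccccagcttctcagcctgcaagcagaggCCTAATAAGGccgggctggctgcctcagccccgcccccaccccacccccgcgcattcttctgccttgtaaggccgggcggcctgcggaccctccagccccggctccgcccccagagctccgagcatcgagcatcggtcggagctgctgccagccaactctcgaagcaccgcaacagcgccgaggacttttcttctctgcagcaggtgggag
Fbxl22: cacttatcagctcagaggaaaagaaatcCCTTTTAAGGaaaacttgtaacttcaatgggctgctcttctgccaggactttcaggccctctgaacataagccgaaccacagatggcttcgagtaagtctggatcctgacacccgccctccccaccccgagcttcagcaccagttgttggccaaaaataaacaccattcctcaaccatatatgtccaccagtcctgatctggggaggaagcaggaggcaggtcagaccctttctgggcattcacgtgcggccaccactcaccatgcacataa
Asb2: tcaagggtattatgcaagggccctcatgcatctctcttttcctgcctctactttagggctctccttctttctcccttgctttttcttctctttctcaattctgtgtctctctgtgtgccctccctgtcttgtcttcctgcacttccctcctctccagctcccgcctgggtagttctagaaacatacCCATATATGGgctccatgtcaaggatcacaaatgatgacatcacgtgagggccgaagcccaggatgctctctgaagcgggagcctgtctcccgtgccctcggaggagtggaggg

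Fbxl22 encodes an F-box protein first described at the Z-disc of heart muscle, and Asb2 a ubiquitin ligase subunit that targets filamins. Fbxl22 stood at 757, 517 and 548 CPM in the core, 206, 178 and 213 CPM in the border and 22.5, 15.8 and 21.8 CPM in all other spots. Its rise was 1.70 ± 0.11 against the border (adjusted p = 2.8e-11) and 4.96 ± 0.12 against all other spots (adjusted p = 6.0e-68). Asb2 stood at 270, 158 and 224 CPM in the core and 94.8, 81.3 and 94.9 CPM in the border (1.37 ± 0.12, adjusted p = 6.9e-09). Filamin A itself (Flna), an actin cross-linker, rose to 3593, 3351 and 3507 CPM in the core, against 1627, 1654 and 1828 CPM in the border. Another ligase part, Fbxo32 or atrogin, known from wasting muscle, rose by 1.49 ± 0.17 on the log2 scale (adjusted p = 3.9e-07).

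Part of the calcium entry and storage genes rose with the filaments. Of 27 genes of membrane excitability and calcium handling, 21 were tested against the border, and 8 rose and 1 fell, with a median of 0.83. Against all other spots 15 of 25 rose and 1 fell, with a median of 1.84, and 3 of the 27 had no UMI in the core. Cacna1c (chr6:118587240-119196418), the pore of the L-type calcium channel through which uterine action potentials run, stood at 124, 106 and 95.5 CPM in the core, 37.9, 31.2 and 39.0 CPM in the border and 5.48, 3.73 and 4.79 CPM in all other spots (1.65 ± 0.16 against the border, adjusted p = 3.4e-08). Kcnmb1, the smooth muscle subunit that makes the large-conductance potassium channel more sensitive to calcium, stood at 130, 180 and 156 CPM in the core and 47.4, 66.2 and 64.5 CPM in the border (1.49 ± 0.14, adjusted p = 1.5e-08). The pore of that channel, Kcnma1, was close to undetected, with 1, 0 and 0 UMIs in the core, and was not tested. Core and border did not overlap for Cacna1c or Kcnmb1.

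Atp2b4, a calcium pump of the plasma membrane, rose to 231, 200 and 230 CPM in the core, against 86.6, 94.1 and 92.8 CPM in the border (1.37 ± 0.12, adjusted p = 4.5e-09). Jph2, which ties the plasma membrane to the calcium store, rose by 1.08 ± 0.12 (adjusted p = 2.2e-07). The store's regulators Pln (phospholamban) and Casq2 (calsequestrin) also rose (Casq2 by 1.98 ± 0.32, adjusted p = 7.8e-05), and are named here after their values were seen. Pln had 55.4, 39.6 and 33.2 CPM in the core and 10.8, 6.12 and 5.75 CPM in the border (2.60 ± 0.33, adjusted p = 2.6e-06), from 46, 18 and 24 core UMIs. The member that fell was Ano1, a calcium-activated chloride channel, with 48.2, 48.4 and 40.2 CPM in the core, 166, 79.6 and 115 CPM in the border and 315, 187 and 229 CPM in all other spots (-1.36 ± 0.17 against the border, adjusted p = 1.9e-06).

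Receptors and enzymes that set the readiness of the muscle to contract split between the core and its surroundings. Of 23 contraction-associated genes 17 were tested against the border, and 4 rose and 3 fell (median 0.15). In the comparison with all other spots 9 of 19 rose and 4 fell (median 0.85). The oxytocin receptor Oxtr (chr6:112473683-112489943) was sparse, at 24.1, 17.6 and 26.3 CPM in the core, 9.48, 11.1 and 11.1 CPM in the border and 0.934, 0.932 and 1.27 CPM in all other spots. Its difference was 1.23 ± 0.34 against the border (adjusted p = 0.014, and 0.052 without the library block) and 4.47 ± 0.38 against all other spots (adjusted p = 3.2e-20). The call against the border was lost without replicates 1 and 2 or replicate 4 (adjusted p = 0.12 and 0.13). At full depth, 12.8%, 23.3% and 35.0% of core spots held an Oxtr UMI, against 3.89%, 12.2% and 14.2% of border spots and 0.0741%, 0.544% and 1.13% of spots under 4000 CPM, in spots of unequal depth.

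Ptger3 (chr3:157566892-157645888), a prostaglandin E2 receptor that couples to a fall in cyclic AMP, stood at 63.8, 52.8 and 59.5 CPM in the core and 24.4, 21.1 and 30.8 CPM in the border (1.26 ± 0.20, adjusted p = 5.6e-05). Ptgis, the synthase of the relaxing prostaglandin I2, rose to 397, 381 and 335 CPM in the core, against 145, 137 and 173 CPM in the border (1.38 ± 0.12, adjusted p = 4.8e-09). Neither pair of groups overlapped. The prostaglandin F receptor Ptgfr, central to labour, had 3, 1 and 4 core UMIs, at 3.61, 2.20 and 5.54 CPM in the core against 5.41, 8.90 and 6.16 CPM in the border, and was not called there (adjusted p = 0.54). Gja1, the connexin of the gap junctions that couple uterine muscle cells at birth and decidual cells in pregnancy, ran the other way, with 104, 94.6 and 87.2 CPM in the core, 205, 222 and 202 CPM in the border and 926, 834 and 812 CPM in all other spots. The Gja1 difference was -1.05 ± 0.12 against the border (adjusted p = 5.9e-07) and -3.13 ± 0.13 against all other spots (adjusted p = 6.1e-46). Ptgs2, the inducible cyclooxygenase, was also called lower, on 1, 0 and 2 core UMIs, too few for a fold, and not without replicate 3 or 4 (adjusted p = 0.051 and 0.085).

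Cyclic AMP and cyclic GMP relax smooth muscle. Of 19 genes of cyclic nucleotide signalling 18 were tested against the border, and 4 rose and 1 fell (median 0.11). Against all other spots 8 of 18 rose and 4 fell (median 0.77). Mrvi1, the substrate through which cyclic GMP kinase quiets store release, stood at 205, 194 and 220 CPM in the core and 101, 77.9 and 92.0 CPM in the border (1.28 ± 0.12, adjusted p = 1.3e-08). Pde5a, which breaks down cyclic GMP, stood at 108, 81.4 and 60.9 CPM in the core and 27.1, 27.8 and 33.3 CPM in the border (1.57 ± 0.19, adjusted p = 1.8e-06), and Adcy5, an adenylyl cyclase, rose by 1.10 ± 0.18 (adjusted p = 8.7e-05; 0.97 and under the minimum fold without replicate 3). Core and border did not overlap for these genes. The relaxin receptor Rxfp1 was not called against the border (0.15 ± 0.28, adjusted p = 0.79), with 31.3, 15.4 and 20.8 CPM in the core and 29.1, 15 and 21.4 CPM in the border, while it was higher than in all other spots (2.75 ± 0.33, adjusted p = 3.4e-12).

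Of 24 transcription regulators of smooth muscle, 22 were tested against the border, and 2 rose and 1 fell (median -0.17). Gata6, a zinc finger factor of differentiated smooth muscle, stood at 63.8, 63.8 and 45.7 CPM in the core, 9.48, 17.8 and 18.5 CPM in the border and 1.99, 1.94 and 2.81 CPM in all other spots. Its rise was 1.97 ± 0.28 against the border (adjusted p = 1.2e-05) and 4.69 ± 0.27 against all other spots (adjusted p = 2.7e-32). The homeobox factor Meis1 stood at 135, 161 and 108 CPM in the core and 54.8, 60.1 and 59.5 CPM in the border (1.26 ± 0.14, adjusted p = 3.7e-07). Klf4, which represses contractile genes in cultured vascular muscle, fell to 13.2, 4.40 and 15.2 CPM in the core, against 52.8, 45.1 and 37.0 CPM in the border (-1.81 ± 0.27, adjusted p = 2.4e-05). The co-activator myocardin (Myocd) was too sparse for the border test, with 6, 1 and 7 core UMIs. Its partner Srf was not called against the border (0.41 ± 0.24, adjusted p = 0.30). Against all other spots 5 of 24 regulators rose (Gata6, Myocd, Meis1, Tead3 and Srf) and 6 fell. The list median there was -0.081 (-0.074 over all genes tested). Of 13 steroid receptor and response genes 11 were tested against the border and 0 were called by edgeR or by DESeq2, although 5 had an unadjusted and 4 an adjusted p under 0.05. The oestrogen receptor Esr1 stood at 144, 167 and 132 CPM in the core, 106, 115 and 96.5 CPM in the border (0.57 ± 0.12, adjusted p = 0.0013) and 68.7, 79.8 and 73.1 CPM in all other spots. The progesterone receptor Pgr differed from the border by -0.24 ± 0.24 (adjusted p = 0.58), at 37.3, 11 and 24.9 CPM in the core and 39.9, 28.4 and 31.6 CPM in the border.

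**Figure D3:**
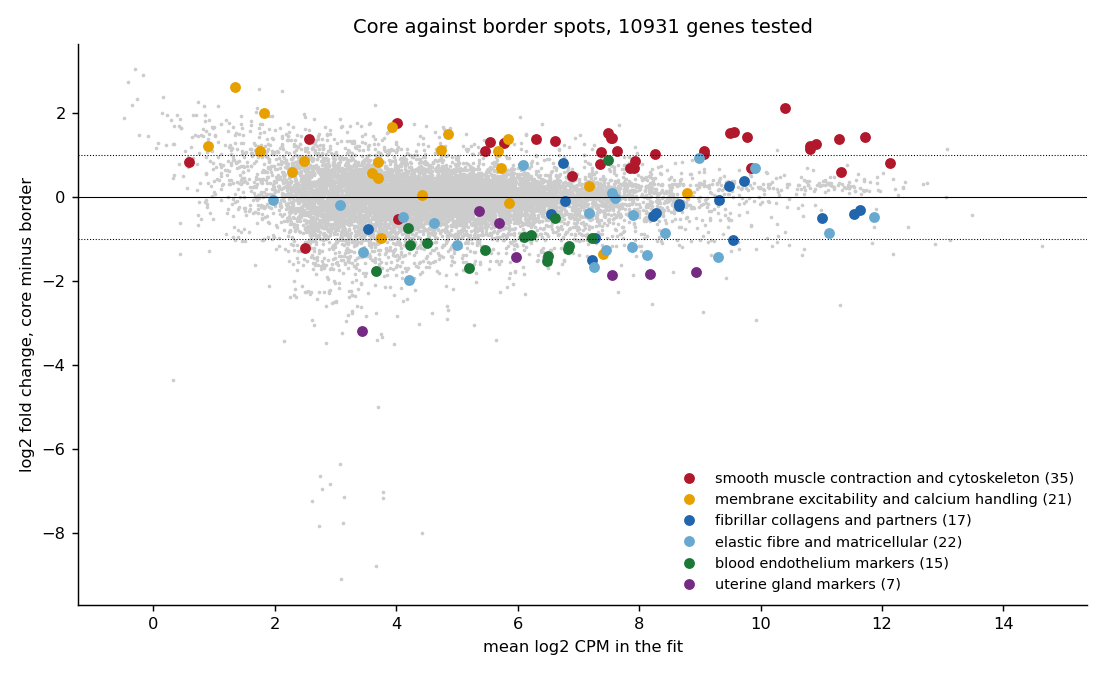
Log2 fold change of core minus border against the mean log2 CPM of the fit for the 10931 genes tested, with 6 gene lists coloured and dotted lines at the minimum fold change. Most contractile genes lie above 0, and gland genes, most endothelial and most matrix genes below it. The lowest group of points, at the bottom of the plot, are genes with 0 UMIs in the core, whose fitted value is no bound.

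The matrix set the core apart from the rest of the tissue and, in the other direction, from its own border. Of 18 fibrillar collagens and partners 13 were higher and 0 lower than in all other spots (median 1.85). Against the border 0 of 17 were higher, 2 were lower (Lox and Bgn, Bgn at -0.86 and no longer called without replicates 1 and 2) and 10 more passed the p threshold alone, with a median of -0.39. The list summed to 17311, 14344 and 16328 CPM in the core, 22348, 20716 and 20375 CPM in the border and 5149, 4450 and 4456 CPM in all other spots. Col3a1 (chr1:45311538-45349706) stood at 4206, 3710 and 3571 CPM in the core, 5135, 5651 and 4580 CPM in the border and 1012, 988 and 840 CPM in all other spots, a difference of -0.32 ± 0.08 from the border (adjusted p = 0.0040) and 2.06 ± 0.09 from all other spots (adjusted p = 7.3e-42). Lox, which cross-links collagen and elastin, was lower in the core, at 91.5, 68.2 and 85.8 CPM, against 267, 233 and 241 CPM in the border (-1.51 ± 0.14, adjusted p = 1.3e-08).

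Elastic fibre genes were lower in the core than at its border in part of the list. Of 22 elastic fibre and matricellular genes, 8 fell and 0 rose against the border (median -0.56), while 10 rose and 3 fell against all other spots (median 0.84). Elastin (Eln, chr5:134702593-134747323) stood at 163, 216 and 188 CPM in the core, 578, 584 and 422 CPM in the border and 180, 187 and 134 CPM in all other spots, a difference of -1.38 ± 0.12 from the border (adjusted p = 3.7e-09) and 0.23 ± 0.12 from all other spots (adjusted p = 0.12). In a core cut at 30000 CPM, with 65, 2 and 5 spots, Eln was lower than in all other spots (-1.32 ± 0.30, adjusted p = 9.4e-05). Mfap4, a microfibril-associated protein, stood at 86.7, 136 and 108 CPM in the core, against 424, 316 and 345 CPM in the border (-1.68 ± 0.16, adjusted p = 2.6e-08). Postn, Tnxb and Sparcl1 were among the 10 that rose against all other spots, and without replicate 4 Sparcl1 was called higher than the border too (1.06 ± 0.13). Postn, secreted around contracting and remodelling tissue, stood at 2712, 1142 and 1428 CPM in the core and 1270, 1041 and 1043 CPM in the border (0.68 ± 0.12, adjusted p = 2.2e-04, under the minimum fold). The Postn level of replicates 1 and 2 stood apart from the other core values.

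Each smooth muscle cell is wrapped in a basement membrane. Of 15 basement membrane genes 0 were called against the border by edgeR or by DESeq2, with 9 at an unadjusted and 6 at an adjusted p under 0.05, and 5 were higher and 2 lower than in all other spots. Adhesion to that membrane and to the matrix differed by smaller folds: of 19 tested genes of the costamere, the link from filament to matrix, 1 was called higher than the border (Sgca, a sarcoglycan, lost without replicate 3 or 4 at adjusted p = 0.14 and 0.097) and 11 more passed the p threshold alone, with a median of 0.71. Ilk, the kinase scaffold behind integrins, was typical at 836, 671 and 752 CPM in the core, against 453, 457 and 445 CPM in the border (0.83 ± 0.09, adjusted p = 3.4e-07). Of 16 fibroblast markers 5 were lower than in the border and 0 higher (median -0.25), among them Sfrp4, a Wnt antagonist, at 138, 125 and 188 CPM in the core, against 728, 435 and 529 CPM in the border (-1.80 ± 0.13, adjusted p = 5.9e-10). Sfrp4 is also in the list of undecidualized stroma, and Mfap5, another of the 5, is also in the elastic fibre list. Of the 16, 7 rose and 4 fell against all other spots. The fibroblast list summed to 5833, 5505 and 6330 CPM in the core and 7208, 6567 and 7062 CPM in the border, and their part in the matrix levels was not tested.

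**Figure D4:**
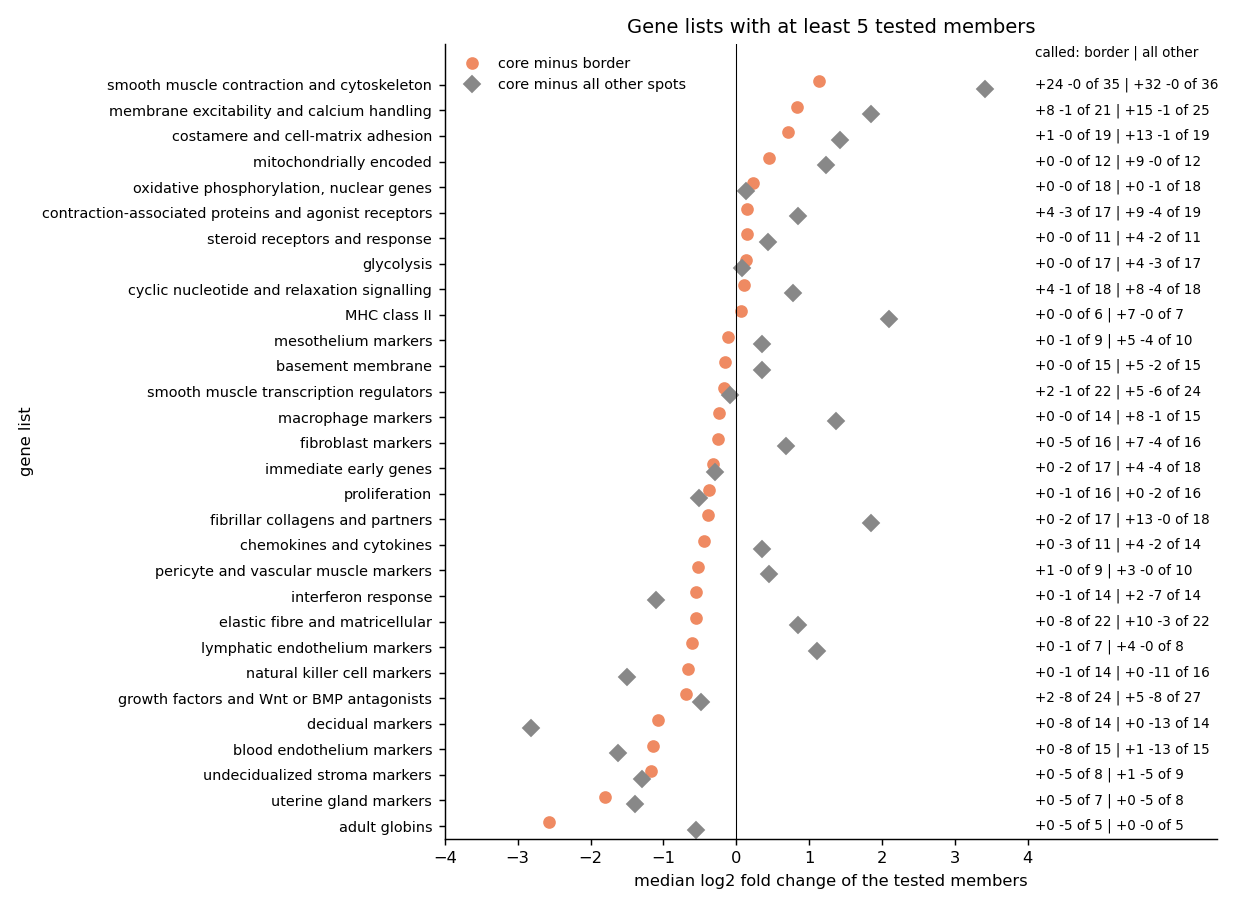
Median log2 fold change of the tested members of each gene list, core minus border (circles) and core minus all other spots (diamonds), with the numbers called higher and lower at the right. Contractile genes have the highest median in both comparisons and calcium genes the next against the border. Collagens, macrophage and MHC class II genes lie above 0 against all other spots and near or below 0 against the border.

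Blood endothelial transcripts were lower in the core. Of 15 blood endothelial markers 8 were lower and 0 higher than in the border (median -1.14), and 13 were lower and 1 higher than in all other spots (median -1.62). Pecam1, an adhesion protein of endothelium, stood at 27.7, 24.2 and 15.2 CPM in the core, 65.0, 84.6 and 61.6 CPM in the border and 106, 117 and 120 CPM in all other spots (-1.54 ± 0.22 against the border, adjusted p = 1.9e-05). The exception was Aqp1, a water channel also of other cells, at 377, 293 and 386 CPM in the core and 92.8, 90.7 and 83 CPM in all other spots (2.04 ± 0.11, adjusted p = 3.1e-34). Of 10 pericyte and vascular muscle markers Mcam alone was called higher than the border, a call lost without replicate 4 (0.95 ± 0.16). Rgs5, a pericyte marker, had 38.5, 92.4 and 42.9 CPM in the core and 92.7, 136 and 89.1 CPM in the border (-0.88 ± 0.22, adjusted p = 0.0054), and without replicate 3 it was called lower (-1.11 ± 0.18). Of 8 lymphatic markers 4 were higher than in all other spots, and 1 of 7 tested was lower than in the border. Ccl21a, a lymphatic chemokine with near-identical copies, stood at 48.2, 189 and 166 CPM in the core, 104, 235 and 188 CPM in the border and 11.1, 18.8 and 18.1 CPM in all other spots.

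Macrophage and MHC class II genes, which mark antigen-presenting cells, were higher in the core than in the rest of the tissue. All 7 MHC class II genes tested were higher than in all other spots (median 2.10), and 0 of 6 were called against the border by edgeR or by DESeq2, with 0 at an unadjusted p under 0.05 (median 0.06). H2-Ab1 stood at 153, 117 and 147 CPM in the core, 158, 146 and 141 CPM in the border and 33.1, 35.9 and 31.6 CPM in all other spots. Of 15 macrophage markers 8 were higher and 1 lower than in all other spots (median 1.37). Against the border 0 of 14 were called by edgeR or by DESeq2 (median -0.23). By edgeR 3 had an unadjusted and 1 an adjusted p under 0.05. The complement gene C1qa, made by tissue macrophages, stood at 144, 163 and 163 CPM in the core, 162, 208 and 205 CPM in the border and 32.6, 41.8 and 35.5 CPM in all other spots (2.16 ± 0.13 against all other spots, adjusted p = 3.2e-32). Natural killer cell markers differed most between libraries, and their sum was 128, 2893 and 1704 CPM in the core, 558, 4181 and 2462 CPM in the border and 1475, 8242 and 3381 CPM in all other spots. Of 14 tested 1 was lower than in the border, and 11 of 16 were lower than in all other spots, against 7 by DESeq2. The granzyme Gzmd, of a family of near-identical genes, had a UMI in 2.13%, 46.7% and 32.5% of core spots thinned to 1000 UMIs, against 8.67%, 41.6% and 30.3% of spots under 4000 CPM, and the part of free RNA in this was not tested.

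Transcripts of the decidua and glands were lower in the core, and those of blood lower than in the border. Of 14 decidual markers 8 fell against the border, 5 by DESeq2 (median -1.07), and 13 against all other spots (median -2.82), and 0 rose in either. Prl8a2, a prolactin-family hormone of the decidua with close paralogs, stood at 2139, 1076 and 508 CPM in the core, 5956, 1138 and 2393 CPM in the border and 28493, 7643 and 13752 CPM in all other spots. Core and border overlapped for Prl8a2 (-1.12 ± 0.22, adjusted p = 6.9e-04; 0.28 without the library block, and a fold under the minimum without replicates 1 and 2 or replicate 4, at -0.99 and -0.68), and core and all other spots did not (-3.72 ± 0.12, adjusted p = 5.4e-55). Of 8 tested markers of undecidualized stroma 5 fell against the border (median -1.17). Aldh1a2, which makes retinoic acid, stood at 21.7, 24.2 and 15.2 CPM in the core and 104, 115 and 103 CPM in the border (-2.32 ± 0.19, adjusted p = 1.7e-09). Of 7 tested gland markers 5 fell against the border (median -1.80), such as the secreted protease Prss29 at 327, 106 and 321 CPM in the core, against 1435, 376 and 1013 CPM in the border (-1.80 ± 0.11, adjusted p = 1.9e-11, and 0.066 without the library block). Against all other spots 5 of 8 gland markers fell, 4 by DESeq2 (median -1.39). These 5 were Epcam, Krt18, Cdh1, Krt8 and Krt19, while Prss29 and Spink1 were not called there. All 5 adult globin genes fell against the border (median -2.57), with Hbb-bs at 2176, 350 and 356 CPM in the core and 12548, 2235 and 3011 CPM in the border, where near-identical copies may share reads, and its call was lost without the library block (adjusted p = 0.072). The globin list summed to 3507, 477 and 630 CPM in the core, 21704, 3878 and 5587 CPM in the border and 2769, 978 and 2021 CPM in all other spots. Against all other spots 0 of 5 were called by edgeR or by DESeq2. By edgeR 3 had an unadjusted and 3 an adjusted p under 0.05, with a median of -0.56. Without replicates 1 and 2, Hba-a1 (-1.71) and Hbb-bs (-1.23) were called lower than in all other spots. In the library of replicates 1 and 2 the globin list took 13636 CPM in core spots of 20000 to 25000 CPM of the defining sum. It took 589 CPM in those of 25000 to 30000 CPM and 681 CPM in those from 30000 CPM up. That library had 3 core spots with over 100000 CPM of globins, all in the lowest of these classes (defining sums 22135, 23485 and 20127 CPM). The globin values of the core include these 3 spots, and a trend with the defining sum apart from them was not tested. Trophoblast and embryo markers summed to 10.8, 8.80 and 23.5 CPM in the core and 148, 187 and 308 CPM in all other spots.

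Nuclear and mitochondrial energy genes differed from the border by small folds. Of 18 tested nuclear genes of oxidative phosphorylation 0 were called against the border by edgeR or by DESeq2, 9 had an unadjusted and 7 an adjusted p under 0.05, and the median was 0.23. Cox6a1, a subunit of cytochrome oxidase, stood at 1413, 1450 and 1494 CPM in the core and 1038, 1143 and 1230 CPM in the border (0.45 ± 0.08, adjusted p = 3.5e-04). Of 12 tested mitochondrially encoded genes 0 were called against the border by edgeR or by DESeq2. By edgeR 9 had an unadjusted and 7 an adjusted p under 0.05, with a median of 0.45. Against all other spots 9 were higher (median 1.22). Their sum was 24087, 19167 and 12655 CPM in the core, and it was highest in the shallowest library in all classes of spots. Ckb, the brain-type creatine kinase that buffers ATP in smooth muscle, rose to 2143, 1545 and 1959 CPM in the core, against 769, 655 and 821 CPM in the border (1.43 ± 0.11, adjusted p = 7.0e-10). Glycolysis had 0 of 17 genes called against the border by edgeR and 1 by DESeq2. By edgeR 8 had an unadjusted and 6 an adjusted p under 0.05, with a median of 0.14. Gapdh stood at 1345, 2038 and 2170 CPM in the core and 1178, 2207 and 2089 CPM in the border.

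Among the largest rises were genes outside the muscle lists. Sh3bgr, a small protein of muscle, stood at 330, 295 and 256 CPM in the core, 83.9, 77.9 and 88.3 CPM in the border and 9.96, 7.12 and 8.76 CPM in all other spots (1.88 ± 0.12 against the border, adjusted p = 2.2e-11). Cpe, a peptidase that trims hormone precursors, stood at 346, 257 and 233 CPM in the core, 110, 116 and 98.6 CPM in the border and 80.2, 103 and 82.5 CPM in all other spots, so that border and rest overlapped while the core lay above both (1.48 ± 0.13 against the border, adjusted p = 5.1e-09). Tspan13, a tetraspanin, rose by 1.73 ± 0.15 (adjusted p = 4.5e-09) and Ctxn1, a small membrane protein first known in cortex, by 1.47 ± 0.11 (adjusted p = 3.1e-10). Aoc3, an amine oxidase of smooth muscle and fat, stood at 237, 176 and 226 CPM in the core and 13.1, 9.84 and 11.2 CPM in all other spots (4.28 ± 0.13, adjusted p = 1.1e-58). Of 24 tested growth factors and antagonists 2 rose against the border (Pdgfa, lost without replicate 4 at adjusted p = 0.078, and Rspo3) and 8 fell. Rspo3, a secreted enhancer of Wnt signalling, stood at 42.1, 57.2 and 52.6 CPM in the core, 25.7, 25.6 and 22.2 CPM in the border and 20.9, 24.8 and 21 CPM in all other spots (1.14 ± 0.20 against the border, adjusted p = 1.6e-04). Igfbp2, which binds insulin-like growth factors, peaked at the border with 578, 354 and 718 CPM, against 125, 83.6 and 204 CPM in the core (-1.87 ± 0.24, adjusted p = 2.9e-06).

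Core spots were not alike among themselves. Their contractile list ranged over 25217 to 80888, 35267 to 58520 and 36947 to 65408 CPM, with medians of 57469, 47686 and 52712 CPM, and their collagen list over 4803 to 38189, 8753 to 27498 and 8297 to 34971 CPM. With each spot thinned to 1000 UMIs, the 2 lists ranked against each other across core spots, with Spearman's rho of -0.309, -0.203 and -0.322 over 141, 30 and 40 spots. With 3000 UMIs, which only 112 spots of replicates 1 and 2 reached, rho was -0.407, -0.696 and -0.575 over those 112 spots and the 30 and 40 of replicates 3 and 4. For the elastic fibre list rho was -0.392, -0.519 and -0.527 at that depth, and for the basement membrane list -0.444, -0.575 and -0.458. These values describe spots that share a library and a fixed total, in which more of one list leaves less for another. Deeper core spots had lower fibroblast levels, with rho of -0.303, -0.614 and -0.548 between UMIs per spot and the fibroblast list.

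**Figure D5:**
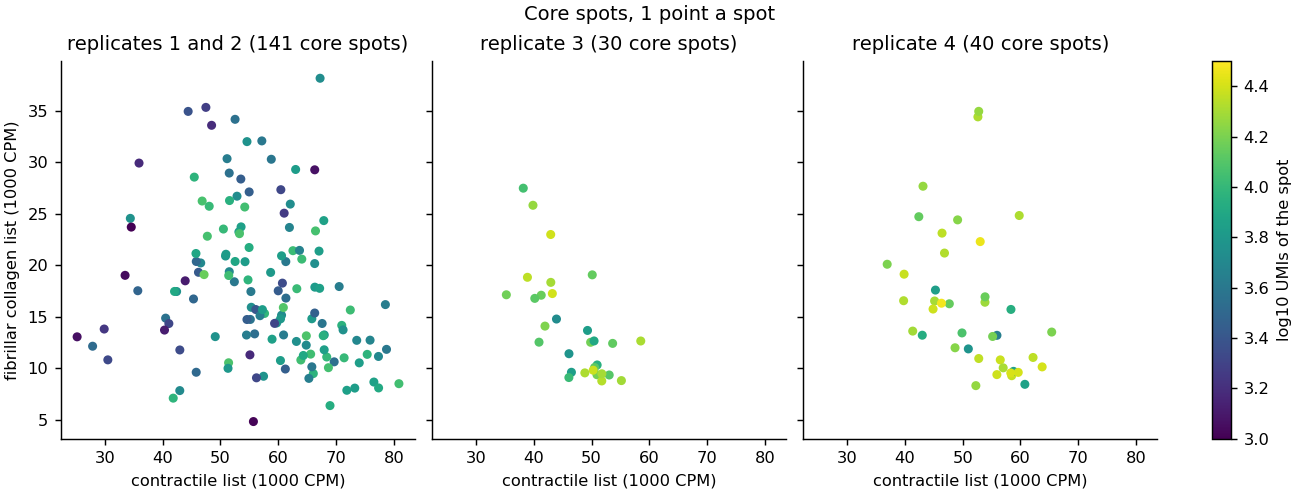
Summed CPM of the fibrillar collagen list against the contractile list in each core spot, in 1 panel per library, coloured by log10 UMIs of the spot. Collagen levels tend to be lower at higher contractile levels in each library, with exceptions, and the shallowest spots are in the library of replicates 1 and 2.

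Decidual transcripts were lower in core spots with higher defining sums. In core spots of 20000 to 25000 CPM, 25000 to 30000 CPM and at least 30000 CPM, decidual markers summed to 6331, 4563 and 1789 CPM in the library of replicates 1 and 2. They summed to 2711, 1329 and 942 CPM in replicate 3 and to 2417, 1208 and 985 CPM in replicate 4, with 5 and 2 spots in the upper classes of replicate 3. The genes that varied most between core spots, of 1611 with at least 0.5 UMIs per spot in each library, were Hba-a1, Hbb-bs, Prss29, Spink1, Prl3c1 and Prl8a2, genes of blood, glands and decidua. In the library of replicates 1 and 2, 3 of the 141 core spots had over 100000 CPM of globins, up to 372650 CPM, while the median was 286 CPM. The highest values in replicates 3 and 4 were 6889 and 11444 CPM. Gland markers had 0 UMIs in 72 of 141, 10 of 30 and 5 of 40 core spots, and reached 21825, 3635 and 8886 CPM in the highest. These counts of spots at 0 are at full depth, with median depths of 5529, 14699 and 19221 UMIs, so they do not compare the libraries.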

How the data were processed

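RNA captured on 3 Visium capture areas was counted. The deposited matrices hold raw UMI counts for each gene in each spot, with no normalisation by the authors, made with Space Ranger 1.2.2 per the file headers and with Cell Ranger and the mm10 build per the submitters' processing notes. Of aligner settings, the annotation version and the rule for spots under tissue, none is given in the sources used here. The files hold no spot positions, so core, border and other spots are classes of transcripts and not mapped places.

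Spots with at least 1000 UMIs were kept (3939 of 3978) and classed by the summed CPM of the 5 defining genes. Counts were summed per library and class. The border comparison used 9 sums (core, border and spots under 4000 CPM in 3 libraries) and the other comparison 6 sums. Both used edgeR 4.0.16 in R 4.3.3 with filterByExpr, TMM scaling and library as a block. The classes of 1 library come from the same sections, which is where the pairing comes from. The labels call the replicates biological, but 1 matrix mixes 2 of them without a map. With library as a block, p-values rest on how much differences between classes varied across the 3 libraries. In the border comparison that spread also includes the spots under 4000 CPM. DESeq2 1.42.0 was an alternative. Spots were classed, thinned and plotted in Python 3.11.15 with pandas 2.3.3, scipy 1.17.1, numpy 2.4.6 and matplotlib 3.10.9.

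The members and the 36 gene lists were chosen with earlier results of these data known. Some genes are in more than 1 list, such as Krt18 in the gland and mesothelium lists, so counts of different lists are not independent. Genes named are, per comparison, up to 14 that rose most and 10 that fell most among genes called with the same sign in 3 libraries and with log2 CPM averaging 5 or more. Of each list, the 4 members with the smallest p and the 2 with the most core UMIs were added. Any other gene was chosen after its values were seen. Gene positions are from GENCODE M21 (GRCm38), which held 32158 of the 32285 gene IDs.

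The fits were tested on simulated counts in which 200 genes were changed. Every simulated gene had the same spread, and the 200 were drawn above a minimum level. Recovery of sparse or more variable genes was therefore not tested, and the minimum fold of a call was not applied. In the core against border simulation of 10537 genes, the test recovered 8% of genes raised 1.5-fold, 58% of genes raised 2-fold, 100% of genes raised 4-fold and 38% of genes lowered to 0.5 of their level, at an adjusted p under 0.05, and 0.0193% of unchanged genes passed. Alternatives covered scaling, test, filter, block, thresholds, depth, defining genes and leaving out each library. Classes of 20000 to 40000 CPM and above had been planned for the spread within the core, and the narrower classes were chosen after seeing the data, as was thinning to 3000 UMIs.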

Additional observations from a re-analysis of the deposited data

How the results depend on the processing

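Across the alternatives run, 1270 of 1383 recomputed fold changes of named genes against the border and 1187 of 1244 against all other spots kept their direction and their side of the call. Differences that were not called changed sign in 27 cases, and the cause was not tested. With the core cut at 30000 CPM these were Eln (-1.32, then called lower), Mfap4 (-0.91), Il33 (-0.63), Igfbp2 (-0.53), Bgn (-0.16) and Gapdh (-0.15) against all other spots, and H2-Ab1 (-0.41) and Gapdh (-0.079) against the border. With the core cut at 15000 CPM they were Lox (0.15) and Prss29 (0.16) against all other spots, and Rxfp1 (-0.18) and Upk3b (0.19) against the border. Gapdh came to -0.26 thinned, -0.039 unfiltered and -0.032 to 0.053 with 1 library left out against all other spots, and to -0.087 thinned against the border. Against the border, H2-Ab1 came to -0.014 unfiltered, -0.073 with 3 defining genes, -0.042 from 8000 CPM, -0.011 with 6 sums and -0.025 to 0.071 with 1 library left out, Ccl8 to -0.097 from 8000 CPM and -0.065 to 0.18 with 1 library left out, Cxcl12 to 0.17 thinned, and Upk3b to 0.0067 with DESeq2, 0.0063 with no replicate block and -0.23 to 0.043 with 1 library left out. Against the border, 659 called genes became 1618 with no minimum fold change, 422 with no replicate block (243 higher and 179 lower; the library pairs the classes), 1014 with the core cut at 30000 CPM (327 higher and 687 lower, median over all genes -0.16), 369 with the border from 8000 CPM (14 named genes then missed the call, among them Flna, Lmod1, Ptgis and Gja1) and 124 with spots thinned to 1000 UMIs, where 2913 genes were tested. DESeq2 called 298 higher and 232 lower, and a core cut at 15000 CPM gave 291 higher and 202 lower, when 10 named genes missed the call, among them Eln, Lox, Gja1 and Klf4. Leaving out 1 library gave 381 to 646 calls, the fewest without replicates 1 and 2. Against all other spots, 3502 calls became 5711 with no minimum fold change and 927 with thinned spots, where 6956 genes were tested, and 2941 to 3525 with 1 library left out. Without replicates 1 and 2, Hbb-bs, Hba-a1, Spink1, Pgr and Mfap4 gained and Gzmd, Esr1 and Ptgfr lost the call against all other spots. The core took 11.3%, 4.81% and 6.81% of spots at 15000 CPM, and 3.67%, 0.185% and 0.460% at 30000 CPM. The rank correlation of contractile and collagen lists moved to -0.407, -0.696 and -0.575 at 3000 UMIs. The thinning to 3000 UMIs was chosen after seeing the data. Replicate 3 rests on 30 core spots, and on 2 above 30000 CPM.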

Other observations

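The proliferation list had its lowest sums in the core. It summed to 973, 973 and 935 CPM in the core, 1534, 1647 and 1518 CPM in the border and 3897, 3397 and 3482 CPM in all other spots. Of its 16 genes 1 was called lower than the border (Rrm2, at -0.98 and under the minimum fold without replicate 4). Against all other spots 2 of 16 were lower. Of all genes tested, 3.23% were lower than the border and 13.9% lower than all other spots. The list medians were -0.37 and -0.52 (-0.0077 and -0.074 over all genes tested). Another 3 and 9 members passed the p threshold alone. Of 19 chemokines and cytokines 11 were tested against the border and 3 fell (Il33, Il15 and Cxcl14), 1 by DESeq2. The Il33 call was lost without any 1 library (edgeR, adjusted p = 0.085 to 0.11) and the Il15 call without replicate 4 (edgeR, adjusted p = 0.47), while Ccl8, Ccl11, Csf1 and Cxcl12 were higher than in all other spots. Cxcl14, a chemokine of epithelium and stroma, stood at 309, 227 and 490 CPM in the core, 899, 539 and 1163 CPM in the border and 1124, 794 and 1293 CPM in all other spots. Cxcl12, a stromal chemokine, stood at 99.9, 90.2 and 84.5 CPM in the core, 114, 136 and 109 CPM in the border and 24.2, 29.6 and 27.0 CPM in all other spots. Of 14 interferon response genes 2 were higher and 7 lower than in all other spots. Of 17 tested immediate early genes 2 were lower than in the border (Klf4 and Fos, of which Fos was lost without replicate 4, edgeR, adjusted p = 0.11).

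Mesothelium covers the outer face of the uterus. Of 12 mesothelial markers 10 were tested against all other spots, where 5 were higher in the core and 4 lower (Krt18, Krt8, Krt19 and Wt1). Upk3b, a uroplakin and one of the 5, stood at 22.9, 30.8 and 26.3 CPM in the core, 25.7, 26.2 and 30.8 CPM in the border and 8.09, 3.28 and 5.17 CPM in all other spots. The mast cell protease Cma1 had 6, 1 and 28 core UMIs, most of them in replicate 4, and was higher than in all other spots (edgeR, adjusted p = 8.2e-15). It was the only 1 of 5 tested mast cell markers that rose there, and 2 fell (Kit and Tpsab1), with a median of -0.81. Mast cell markers summed to 20.5, 17.6 and 94.1 CPM in the core and 70.7, 100 and 95 CPM in all other spots. T and B cell markers summed to 118, 24.2 and 18.0 CPM in the core and 19.9, 20.5 and 22.1 CPM in all other spots. The neutrophil sums were 75.8, 251 and 88.6 CPM in the core and 840, 1334 and 1199 CPM in all other spots. For adipocyte markers they were 155, 99.0 and 102 CPM in the core and 1488, 632 and 1355 CPM in all other spots. Only 3 of the 8 adipocyte markers were tested there, and Lpl was higher and Fabp4 lower in the core (median -0.30). Of the 8, 2 had no UMI in the core. Nerve and Schwann cell markers had 36.1, 30.8 and 30.5 CPM in the core and 43.2, 26.4 and 39.7 CPM in all other spots. Against the border 1 gene was called lower in the adipocyte list (Fabp4) and 1 in the neutrophil list (S100a9, lost without any 1 library, edgeR, adjusted p = 0.059 to 0.25).

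Npy and Mt4 followed blood, gland and decidual genes and Fabp4 among the genes that varied most between core spots. Npy, a neuropeptide, stood at 90.3, 94.6 and 104 CPM in the core, 196, 187 and 175 CPM in the border and 24, 19.2 and 19.6 CPM in all other spots. Gpr83, a receptor coupled to G proteins and named after its values were seen, had 1 UMI in the whole core, against 16.2, 5.57 and 9.03 CPM in the border.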
